A study of Saccharomyces cerevisiae with 6 samples.

Results

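The genes described here encode the enzymes that make and degrade glycogen in the budding yeast Saccharomyces cerevisiae, compared between the mutant BH13 and its reference strain. They are 10 of the 6256 genes with a probe on the array, chosen as the probes whose systematic name is that of GLG1, GLG2, GSY1, GSY2, GLC3, PGM1, PGM2, UGP1, GPH1 or GDB1. Each gene has 1 probe, spotted 2 times on every array. BH13 is a mutant selected for resistance to coniferyl aldehyde, a phenolic aldehyde released from lignin, and REF is the reference strain it is set against. The labels name no genotype for either beyond mutant and reference strain, and the mutant is a single selected strain. Both strains grew without treatment in yeast minimal medium at 30 °C and 150 rpm, and RNA was taken in log phase at an OD600 of about 1.0. There were 3 BH13 arrays and 3 REF arrays, each of 1 sample, and the labels do not say whether replicate cultures were started separately, so the p-values speak only of how far these samples differ, and part of that spread may be technical.

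Glycogen is the branched glucose polymer in which yeast stores carbon, and cells are known to build it up as growth slows and when they meet stress. Phosphoglucomutase turns glucose 6-phosphate into glucose 1-phosphate, UDP-glucose pyrophosphorylase activates it to UDP-glucose, glycogenin primes a chain by glucosylating itself, glycogen synthase extends the chain and the branching enzyme adds branches. Breakdown runs through glycogen phosphorylase, which releases glucose 1-phosphate, and the debranching enzyme, which removes the branch points that stop phosphorylase. The activity of synthase and phosphorylase is also set by phosphorylation, which transcript levels do not show.

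Values below are log2 processed signal relative to the 75th percentile of the gene spots on that array, so that 0 is the signal of a gene at that percentile. Differences are BH13 minus REF in log2 units, ± the standard error (SE) from limma with n = 3 arrays per strain, and adjusted p-values are from limma with Benjamini-Hochberg adjustment over the 5890 genes tested. A gene was called higher or lower where that adjusted p was under 0.05. Of the genes tested, 81.3% were called, 38.0% higher and 43.3% lower in BH13, and the strains' values did not overlap for 83.7%, so a call by itself does not set a gene apart in this comparison. The median difference over all genes tested was -0.07. Between 91.4% and 93.8% of gene spots were well above background. The BH13 arrays shared 1 slide and REF replicate 3 lay on a slide of its own, and the REF arrays were scanned in a different year from the BH13 arrays, so strain and time of scanning cannot be told apart. Levels are compared only for the same probe, because brightness differs from probe to probe. Fewer cells that express a gene and less RNA per cell cannot be told apart in RNA from whole cultures.

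Of the 10 glycogen genes, 8 were higher in BH13, 1 was lower and 1 was not called, against 38.0% of all genes called higher. The same 8 of the 10 were higher by at least 2-fold, where 17.9% of all genes tested were called higher and by at least 2-fold. The median difference of the 10 was 2.79. By role, 4 of 5 synthesis genes, 2 of 3 genes of UDP-glucose supply and 2 of 2 breakdown genes were higher. PGM1 was the member that fell, and the glycogenin gene GLG2 was the member not called. All 10 were well above background on all 6 arrays, and none had an outlier or a saturated spot.

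**Figure D1:**
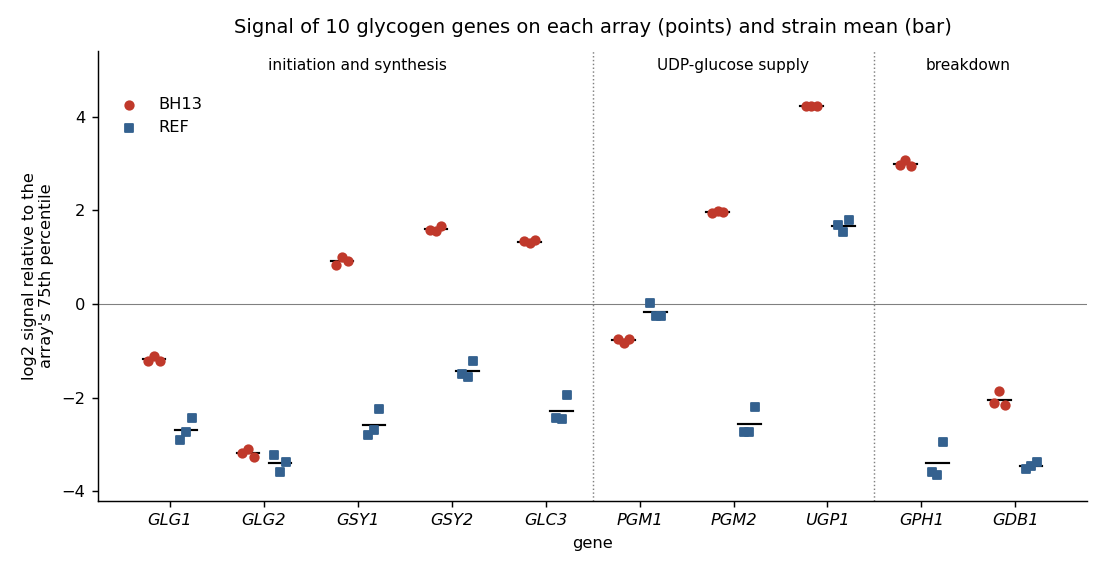
Log2 signal relative to each array's 75th percentile (vertical axis) for the 10 glycogen genes, with 1 point per array and a bar at the strain mean. BH13 (red circles) lies wholly above REF (blue squares) for 8 genes, wholly below it for PGM1, and overlaps it for GLG2.

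Chain initiation was the step with the smaller differences among the synthesis genes. GLG1 (YKR058W), which encodes a glycogenin, had log2 values of -1.21, -1.11 and -1.21 on the BH13 arrays, against -2.91, -2.74 and -2.43 on the REF arrays. All 3 BH13 values lay above the REF values, and GLG1 rose 2.86-fold, by 1.51 ± 0.12 (limma adjusted p = 6.17e-06). GLG2 (YJL137C), the other glycogenin gene, was at -3.17, -3.09 and -3.27 in BH13, against -3.23, -3.60 and -3.38 in REF. The BH13 values of GLG2 sat at the upper end of the REF range and overlapped it. The difference was 0.22 ± 0.11 and was not called (limma adjusted p = 0.0805), with a 95% interval from -0.02 to 0.47. It was called higher with REF replicate 1 left out (0.31, limma adjusted p = 0.0285), with quantile normalization (0.28, limma adjusted p = 0.0296) and with cyclic loess normalization (0.35, limma adjusted p = 0.0129).

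Both glycogen synthase genes rose. GSY1 (YFR015C), the minor isoform, was at 0.83, 1.00 and 0.91 in BH13, against -2.79, -2.68 and -2.25 in REF. Its signal was above the 75th percentile on all BH13 arrays and below it on all REF arrays, and it rose by 3.49 ± 0.14, or 11.2-fold (limma adjusted p = 1.39e-07). GSY2 (YLR258W), the isoform that is known to provide most of the synthase activity, was at 1.58, 1.57 and 1.66 in BH13, against -1.49, -1.56 and -1.21 in REF. Its BH13 arrays differed from one another by less than 0.1, and the increase was 3.02 ± 0.10, or 8.11-fold (limma adjusted p = 7.98e-08). GLC3 (YEL011W), which encodes the branching enzyme, was at 1.34, 1.30 and 1.36 in BH13, against -2.44, -2.46 and -1.94 in REF. GLC3 had the largest increase among the synthesis genes, 3.61 ± 0.14 or 12.3-fold (limma adjusted p = 1.15e-07), although its 95% interval, 3.30 to 3.93, overlapped that of GSY1, 3.17 to 3.81.

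The genes that supply UDP-glucose moved in different directions. PGM2 (YMR105C), the major phosphoglucomutase, was at 1.94, 1.98 and 1.97 in BH13, against -2.74, -2.73 and -2.21 in REF. The 3 BH13 values were nearly the same, and the gene rose 23.0-fold, by 4.52 ± 0.14 (limma adjusted p = 6.25e-08), which ranked 28th among all increases. PGM1 (YKL127W), the minor phosphoglucomutase, was at -0.75, -0.84 and -0.74 in BH13, against 0.02, -0.25 and -0.24 in REF. All BH13 values of PGM1 were below the REF values, and it fell by 0.61 ± 0.09, to 0.653 of the REF signal (limma adjusted p = 0.000314).

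UGP1 (YKL035W), which encodes UDP-glucose pyrophosphorylase and also serves trehalose and cell wall glucan synthesis, was at 4.23, 4.24 and 4.23 in BH13, against 1.69, 1.53 and 1.80 in REF. It was above the 75th percentile in both strains and rose 5.89-fold, by 2.56 ± 0.09 (limma adjusted p = 7.92e-08). Its median spot signal reached 53077 in BH13, far below the saturation value of 777334 given in the header of that array, so the bright value was not limited by the scanner's ceiling.

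The breakdown genes held the largest increase of the pathway and one of its smaller ones. GPH1 (YPR160W), glycogen phosphorylase, was at 2.97, 3.08 and 2.95 in BH13, against -3.59, -3.66 and -2.95 in REF. The strains were further apart than for any other member. GPH1 rose 84.4-fold, by 6.40 ± 0.17 (limma adjusted p = 4.27e-08), the 9th largest increase among the 5890 genes. Its weakest REF spot pair was still 6.63 times as bright as the local background. GDB1 (YPR184W), which encodes the debranching enzyme that acts together with phosphorylase, was at -2.11, -1.86 and -2.16 in BH13, against -3.51, -3.45 and -3.38 in REF. Its strains did not overlap, and it rose 2.65-fold, by 1.41 ± 0.10 (limma adjusted p = 2.34e-06).

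**Figure D2:**
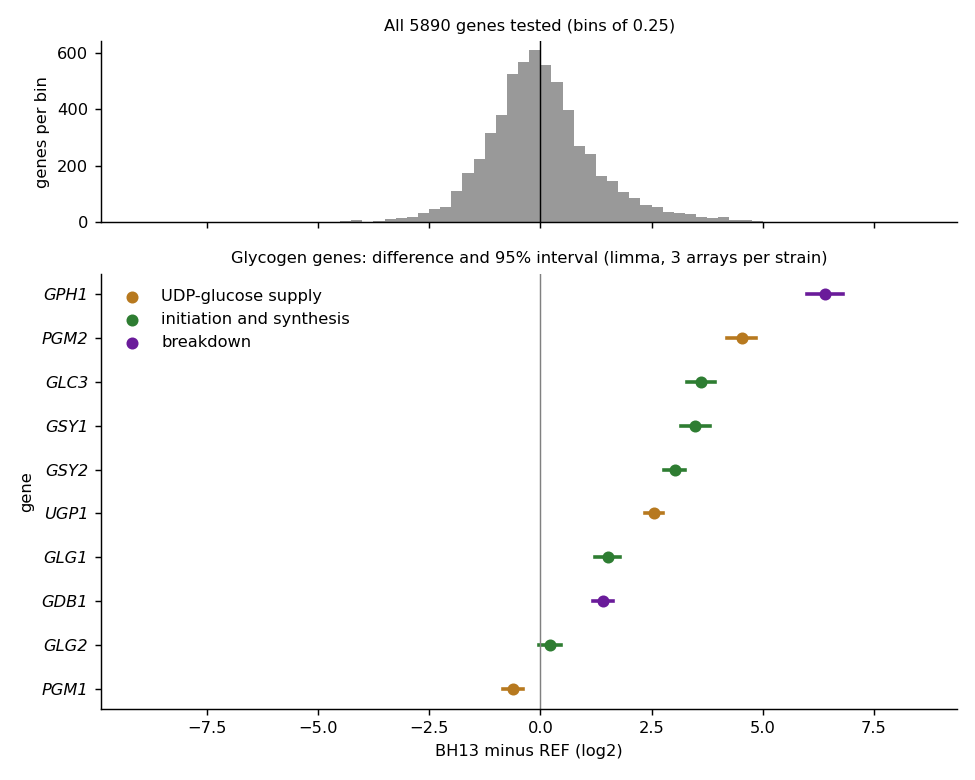
Lower panel, BH13 minus REF in log2 units (horizontal axis) for each glycogen gene, with its 95% interval from limma and its role in colour. The upper panel shows the same quantity for all 5890 genes tested, and GPH1 at 6.40 and PGM2 at 4.52 lie in the thin right tail, while GLG2 at 0.22 lies in the bulk.

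Set side by side, synthesis and breakdown genes did not separate by the size of their differences. The 5 synthesis genes ran from 0.22 for GLG2 to 3.61 for GLC3 with a median of 3.02, and the 2 breakdown genes were at 1.41 and 6.40. GPH1 rose more than any synthesis gene, and its 95% interval lay wholly above that of GLC3. GDB1, in contrast, had an interval of 1.19 to 1.63 that overlapped that of GLG1, 1.23 to 1.79, and lay below those of GSY1, GSY2 and GLC3. In the order of differences the neighbours GLC3 and GSY1, GSY1 and GSY2, and GLG1 and GDB1 had overlapping 95% intervals. Such intervals describe single genes, so their overlap is not a test of whether genes differed by unlike amounts. GPH1 and PGM2 stood above all other members without overlap. The interval of UGP1, 2.36 to 2.76, did not reach that of GSY2, 2.78 to 3.26, by a narrow margin.

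Within each pair of isoenzymes the log2 signal of one probe minus that of the other was taken on every array, so that scaling between arrays by a single factor cancels. GSY2 minus GSY1 was 0.75, 0.57 and 0.75 on the BH13 arrays, against 1.30, 1.13 and 1.04 on the REF arrays. The value was lower on every BH13 array than on any REF array, and the means differed by -0.47 ± 0.10 (SE from the spread of arrays, n = 3 each), so GSY1 rose somewhat more than GSY2. With normexp background correction this difference shrank to -0.30.

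GLG2 minus GLG1 was -1.96, -1.98 and -2.05 in BH13, against -0.32, -0.86 and -0.95 in REF, a difference of -1.29 ± 0.20. PGM2 minus PGM1 was 2.69, 2.82 and 2.72 in BH13, against -2.75, -2.47 and -1.96 in REF, a difference of 5.14 ± 0.23, or a 35.2-fold change in the ratio of the 2 signals. The sign of that value was opposite in the strains, but because it sets different probes against each other it does not say which transcript was more abundant. In all 3 pairs the exact two-sided permutation test gave p = 0.1, also after adjustment over the 3 pairs, and 0.1 is the smallest p that 3 arrays against 3 allow. The isoenzymes of a pair resemble each other in sequence, and whether their probes read each other's transcripts was not tested.

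**Figure D3:**
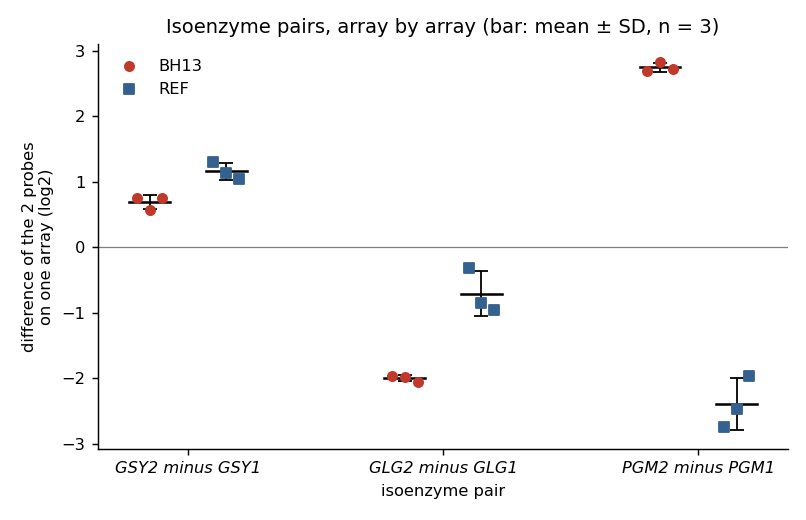
Log2 difference between the probes of each isoenzyme pair on each array (vertical axis), with the mean and SD of 3 arrays per strain. BH13 (red, left of each pair) and REF (blue, right) do not overlap in any pair, and the gap runs from -0.47 for GSY2 minus GSY1 to 5.14 for PGM2 minus PGM1.

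Among regulators of glycogen synthase, the type 1 phosphatase side held 7 genes that rose and 1 that fell of 8, where 38.0% of all genes were called higher and 43.3% lower, and their median difference was 1.17. GAC1, which encodes the subunit that brings the phosphatase to glycogen synthase, was at -2.08, -1.99 and -2.15 in BH13, against -5.99, -6.10 and -5.84 in REF. The REF signal of GAC1 was dim, and the gene rose by 3.90 ± 0.09 (limma adjusted p = 2.60e-08), or by 2.88 with normexp background correction. GLC7, the catalytic subunit, rose by 1.75 ± 0.10, and GIP2 and PIG2, related to targeting subunits, by 2.06 ± 0.19 and 1.60 ± 0.15. The remaining increases were those of YPI1 at 0.75 and GLC8 at 0.72, both of which encode regulators of the phosphatase, and of REG1 at 0.44, which directs it to other targets in glucose repression. PIG1, another gene for a targeting subunit, was the exception and fell by 0.64 ± 0.08, and the fall was 0.33 after normexp.

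The kinases that act on glycogen enzymes showed smaller differences. Of 7 genes for Pho85, its cyclins and the PAS kinases, 2 were higher, 3 lower and 2 not called, with a median of -0.04. The share called, 71.4%, was near the 81.3% of all genes. PSK1, which encodes a PAS kinase known to phosphorylate Ugp1 and glycogen synthase, rose by 1.21 ± 0.08 (limma adjusted p = 2.35e-06). Its paralog PSK2 was lower at -0.26. PCL7 fell by 0.80 ± 0.09 and PCL6 rose by 0.32 ± 0.07. The cyclins PCL8 and PCL10 direct the kinase Pho85 to glycogen synthase. PCL8 was lower at -0.28, and PCL10 at -0.01 and PHO85 at -0.04 were not called. The calls of PCL8 and PSK2 depended on the normalization and on single arrays. PCL8 was not called with quantile or cyclic loess normalization (-0.19 and -0.11), and PSK2 was not called with normexp background correction or cyclic loess normalization (-0.21 and -0.12). PCL8 was also not called without BH13 replicate 2, BH13 replicate 3, REF replicate 1 or REF replicate 3 (limma adjusted p = 0.0771 to 0.0952), nor PSK2 without BH13 replicate 2, BH13 replicate 3 or REF replicate 3 (limma adjusted p = 0.0661 to 0.0843).

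In the Snf1 complex, a kinase needed for glycogen storage, 1 of 5 genes was called, or 20%, against 81.3% of all genes. SIP2, one of its alternative beta subunits, rose by 1.18 ± 0.09 (limma adjusted p = 3.48e-06), or by 0.90 with normexp background correction. The signal of SIP2 was dim, with means of -4.03 in BH13 and -5.21 in REF. SNF1 at -0.20, SNF4 at 0.05, SIP1 at 0.01 and GAL83 at 0.00 were not called, but SNF1 was called lower under 5 alternatives, among them normexp background correction (-0.27, limma adjusted p = 0.00975) and leaving out REF replicate 2 (-0.25, limma adjusted p = 0.0269). Among genes of protein kinase A, which is known to oppose glycogen storage, the catalytic subunit gene TPK2 rose by 1.45 ± 0.08 and TPK3, another catalytic subunit gene, was lower, at -0.64 ± 0.08. BCY1, the inhibitory subunit, rose by 0.90 ± 0.08. PDE2, which degrades cAMP, was lower at -0.41, a call that ended with normexp background correction (-0.28) and with cyclic loess normalization, and PDE1 at -0.08 was not called.

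**Figure D4:**
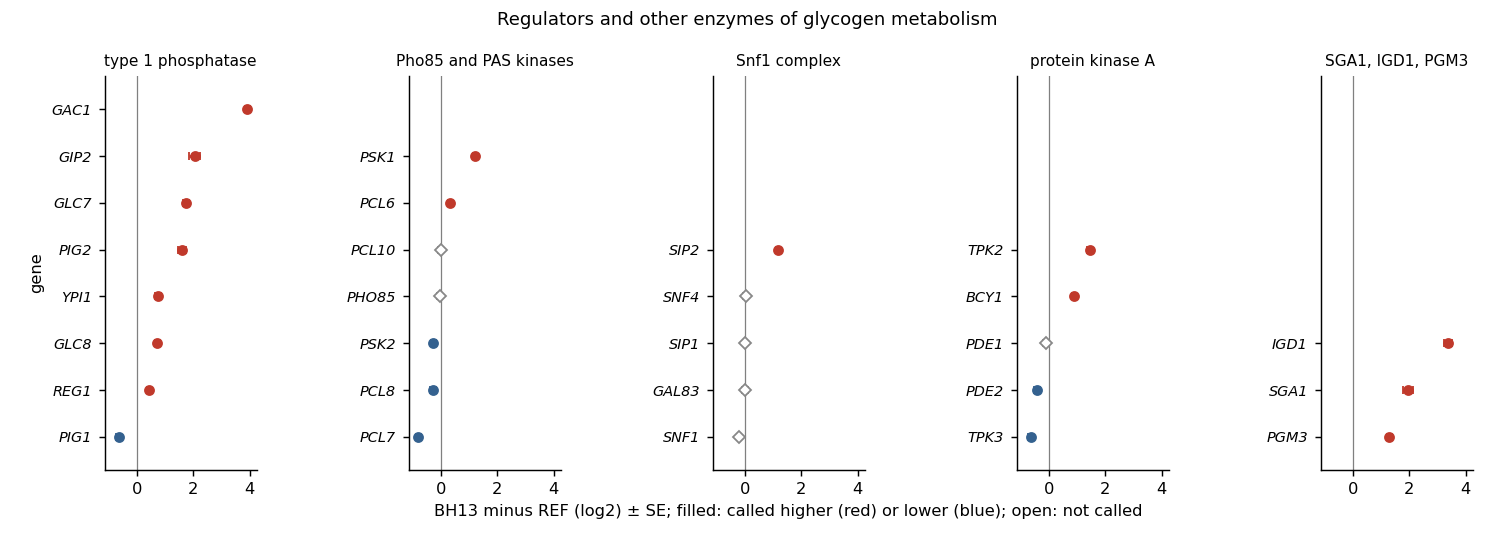
BH13 minus REF in log2 units ± SE (horizontal axis) for genes of the type 1 phosphatase, the Pho85 and PAS kinases, the Snf1 complex, protein kinase A and 3 further enzymes, ordered by size within each panel. Filled points were called higher (red) or lower (blue) by limma and open diamonds were not called, and GAC1 at 3.90 and IGD1 at 3.37 stand furthest to the right.

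In a list of 3 further genes that act on glycogen or on sugar phosphates, all 3 were higher, against 38.0% of all genes. IGD1 (YFR017C), whose product inhibits the debranching enzyme, was at 0.16, 0.33 and 0.09 in BH13, against -3.36, -3.37 and -2.81 in REF. IGD1 thus rose by 3.37 ± 0.15 (limma adjusted p = 2.69e-07), more than GDB1 at 1.41. SGA1, the glucoamylase of sporulating cells, was at -2.75, -3.01 and -3.15 in BH13, against -5.08, -5.13 and -4.55 in REF. It was dim in both strains and rose by 1.95 ± 0.17, or by 1.42 with normexp background correction. PGM3, a phosphoribomutase related to PGM1 and PGM2, rose by 1.29 ± 0.09.

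Around the pathway, genes that make glucose 6-phosphate and genes that draw on UDP-glucose differed among themselves. HXK1 and GLK1, which phosphorylate glucose, rose by 6.67 ± 0.15 and 2.67 ± 0.16, while PGI1, which takes glucose 6-phosphate into glycolysis, was at 0.05 and was not called. HXK2 was called higher at 0.21, and the call ended without any single one of BH13 replicates 1, 2 and 3 or REF replicate 3 (limma adjusted p = 0.0526 to 0.0721). All 4 trehalose synthesis genes were higher, against 38.0% of all genes called higher. TPS1 was at 1.52, TPS3 at 1.56, TPS2 at 1.97 and TSL1 at 4.42. Among trehalose breakdown genes NTH1 rose by 1.47 and ATH1 by 1.62, and NTH2 at 0.29 was not called, although it was called higher under 5 alternatives, among them normexp background correction (0.31), median scaling (0.31) and leaving out REF replicate 3 (0.44, limma adjusted p = 0.00124).

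Other users of UDP-glucose shared no direction. GSC2, a catalytic subunit of cell wall glucan synthase, fell by 2.03 ± 0.09 (limma adjusted p = 2.82e-07). FKS1, its counterpart in growing cells, was called higher at 0.35, a call lost with quantile normalization (0.20, limma adjusted p = 0.158) and without BH13 replicate 1 (0.32, limma adjusted p = 0.0677). KRE6, of beta-1,6-glucan synthesis, was called lower at -0.32, and that call was lost under 7 alternatives (limma adjusted p = 0.0538 to 0.138). These were cyclic loess normalization, median scaling, keeping all dim probes, the slide as a random block, and leaving out BH13 replicate 2, BH13 replicate 3 or REF replicate 1. GAL7, of galactose metabolism, rose by 1.85 ± 0.09, or by 1.06 with normexp background correction. FKS3 at 0.35 was not called but was called higher with normexp background correction (0.35, limma adjusted p = 0.0427) and without REF replicate 3 (0.55, limma adjusted p = 0.0187), and GAL10 was too dim to be tested. Over these 10 lists of other pathway genes, 47 of 48 genes were tested, 28 rose, 8 fell and 11 were not called, and the median difference was 0.44. The share called, 76.6%, was near the 81.3% of all genes, but its direction was not. Of the 47, 28 were higher, against 38.0% of all genes, and 8 were lower, against 43.3%.

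The glycogen genes spread more among REF arrays than among BH13 arrays. The SD of the 3 arrays was larger in REF for 9 of the 10 members, with a median of 0.06 in BH13 and 0.22 in REF. Over all genes tested the median SD was 0.09 in BH13 and 0.11 in REF, and it was larger in REF for 60.0% of genes. REF replicate 3 was the highest REF array for 8 of the 10 members, all but GLG2 and PGM1, against 42.3% of all genes. It exceeded the mean of REF replicates 1 and 2 by 0.67 for GPH1, 0.53 for PGM2, 0.51 for GLC3 and 0.49 for GSY1, and it was below that mean, at -0.13, for PGM1. The median gap of the 10 members was 0.36, against 0.03 over all genes tested. Leaving out REF replicate 3 left all 9 calls in place and gave 6.62 for GPH1 and 4.70 for PGM2. REF replicate 3 was also the array on a slide of its own, and whether slide or culture set it apart was not tested.

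**Figure D5:**
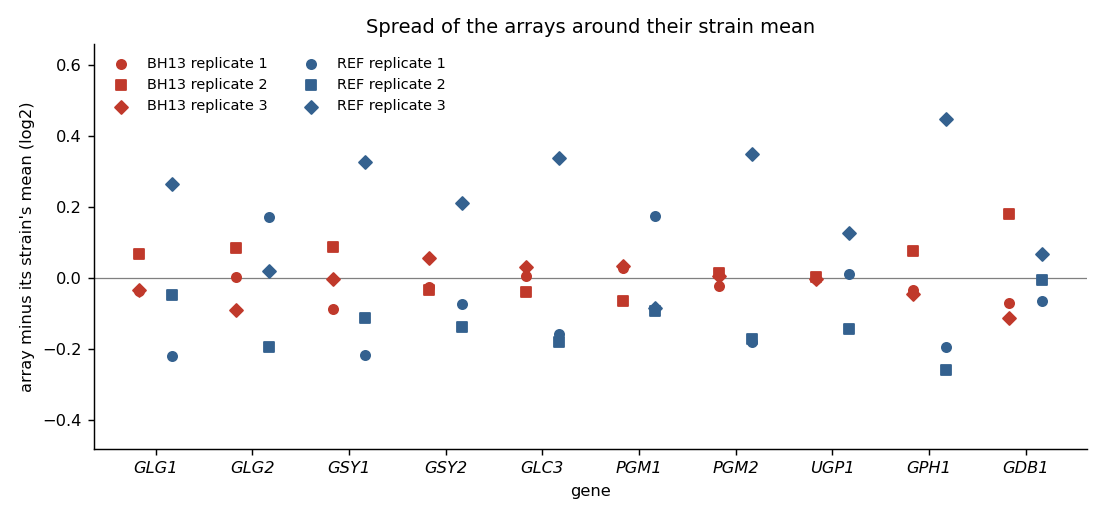
Log2 signal of each array minus the mean of its own strain (vertical axis) for each glycogen gene, with BH13 in red at left and REF in blue at right. BH13 arrays lie close to 0 for most genes, and REF replicate 3 (blue diamonds) lies above the other REF arrays for 8 genes, most of all for GPH1.

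Likeness was measured as the Euclidean distance between the 6 array values of a pair of genes, each centred on its own mean, among tested genes with a standard symbol. Nearest to GPH1 were HSP12, a small membrane-protecting stress protein, at a distance of 0.31, HXK1 at 0.34 and TMA10 at 0.67. Nearest to GLC3 were DCS2 at 0.11, TIM11 at 0.23 and BTN2 at 0.24. Nearest to GSY2 were URA10 at 0.14, RDL1 at 0.15 and OM14 at 0.16, and nearest to PGM1 were MGS1 at 0.08, SLP1 at 0.10 and ISC10 at 0.11. The strain difference makes up most of each pattern over these 6 arrays, so these distances mainly pick genes with a difference of like size.

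Markers of cell state also differed between the strains, in a direction that depended on the list. All 6 genes listed for slow growth or for leaving log phase were higher, against 38.0% of all genes called higher. They were HSP12, HSP26, CTT1, SPG4, FMP16 and TMA10, with a median of 4.78. Their summed signal, in multiples of the 75th percentile, was 60.7, 61.5 and 57.3 in BH13, against 0.965, 0.884 and 1.53 in REF. The highest REF sum was that of replicate 3, the array that was also highest for 8 glycogen genes. All 7 a-cell markers were lower, against 43.3% of all genes called lower. Their summed signals were 0.276 to 0.285 in BH13 and 7.53 to 7.86 in REF. On no BH13 array were MFA2 and AGA2 well above background. All 6 genes listed as haploid-cell markers were lower too, again against 43.3% of all genes. The 6 listed markers summed to 0.435 to 0.463 in BH13 and 4.92 to 5.16 in REF. Mating genes outside the list were not all lower, as FUS1 was called higher at 0.40 and STE7 lower at -0.72. Of the alpha-cell markers, 2 of the 3 tested were higher, against 38.0% of all genes. These were MF(ALPHA)1 by 1.07 ± 0.17 and STE3 by 0.44 ± 0.08, and SAG1 at -0.05 was not called. The signal of MF(ALPHA)1 was dim in both strains, with means of -5.50 in BH13 and -6.57 in REF. The 4 alpha-cell markers summed to 0.143 to 0.167 in BH13 and 0.120 to 0.147 in REF. MF(ALPHA)2 was too dim to be tested, and on no BH13 array was it well above background. Its values overlapped between the strains, at -8.92, -9.02 and -8.69 in BH13 and -9.30, -8.26 and -8.17 in REF. Of the stress regulators, RIM15 was higher at 0.44 and MSN2 at 0.16 was not called, and normexp background correction gave a call at 0.23 (limma adjusted p = 0.0398 there). MSN4 at 0.20 was called higher but not under 6 alternatives (limma adjusted p = 0.0547 to 0.117), which were normexp background correction, the replicate block, and leaving out BH13 replicate 1, BH13 replicate 3, REF replicate 1 or REF replicate 3. The part of growth state and cell type in the differences of the glycogen genes was not tested.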

How the data were processed

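Cy3-labelled RNA of each sample was read on an Agilent one-colour yeast array, per the labels' protocols. The deposited scanner files give spot intensity in linear units after background subtraction and detrending, made with Feature Extraction 10.7.3.1 (file headers) or 9.1 (submitters' processing notes). From these, gene spots not flagged as outliers were put on the log2 scale, both spots of a probe averaged, and the array's 75th percentile of gene spots, 2301 to 4905 intensity units, taken as 0. A probe entered the fit if at least 1 of its spots was well above background on 3 or more of the 6 arrays, which held for 5890 of 6256. How many arrays there are limits the precision. Names came from the RefSeq table of assembly R64 (5756 probes found, 500 keeping the array's name), whose coordinates were not used because the array's build is another.

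The two-sided test was limma's (version 3.58.1, R 4.3.3) with lmFit, eBayes and Benjamini-Hochberg adjustment, tried first on simulated data. Figures used matplotlib 3.10.9 and Python 3.11.15. The authors' deposited table has log2 values for 1325 probes with rows centred near 0. Its columns had medians of -0.58, -0.53 and -0.55 (BH13) and 0.56, 0.60 and 0.52 (REF). BH13 minus REF in that table correlated with the scanner-based difference at a Pearson r of 0.999 across probes, with a slope of 1. The sign was the same for 1325 probes. Scale and direction were thus shared for these probes, which all differ by at least 0.916 (log2) between strains. How the probes of that table were filtered and normalized is not stated in the sources used here. It includes 8 of the glycogen genes, all but GLG2 and PGM1.

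Members and gene lists were chosen with earlier results of these data known. All 10 members are named. Of the other lists, 1 gene is not reported here and was left out of the counts of its list. In the other pathway lists a called gene could be named, and one not called was named if its list had 8 or fewer genes. Cell state markers are summed by list, with some named, and FUS1 and STE7 are named from outside the lists. Likeness names the 3 genes nearest to each of GSY2, GLC3, GPH1 and PGM1. Alternatives changed the background correction (normexp on median signals, offset 50), the scaling (median), the normalization (quantile or cyclic loess), the filter on dim probes (none, or all 6 arrays), the outlier spots (included), the variance model (trend, robust), the source of values (the authors' table) or the design (replicate number as block, slide as random block, 1 array omitted).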

Additional observations from a re-analysis of the deposited data

How the results depend on the processing

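The 9 glycogen genes that were called kept their call and direction under every alternative that tested them. The normexp background correction gave the lowest differences of the 8 that rose, 6.03 for GPH1 and 1.28 for GDB1 among them, and PGM1 ran from -0.66 to -0.53. GLG2 was called in 3 of 16 alternatives, which raised the number of glycogen genes called higher to 9. In the authors' table, which holds probes that differ by at least 0.916 (log2) between strains, 581 genes were called higher and 744 lower, 0 glycogen genes and 0 UDP-glucose supply genes were called lower because PGM1 is not among its probes, and 16 of 17 other pathway genes were higher and 1 lower. Other pathway genes called lower numbered 4 with cyclic loess normalization and 5 to 9 with single arrays left out, the cause of which was not tested. The strain difference of GSY2 minus GSY1 was -0.30 with normexp background correction, which includes an offset that raises dim signals. Whether the offset made this change was not tested. After the strain mean was removed, same-numbered arrays of the strains correlated at 0.126, 0.242 and 0.00266. Unlike-numbered arrays ran from -0.213 to 0.0913, and whether the replicate numbers pair the samples was not tested. With the replicate block 2269 genes were higher and 2576 lower, glycogen calls were 8 and 1, and among other pathway genes SNF1 was called lower (-0.20), NTH2 was called higher (0.29) and MSN4 was not called (0.20). With the slide as a random block (correlation 0.0655) these were 2199 and 2511, and a slide effect between strains could not be tested, since no slide holds both. The scalings moved the median of all genes by at most 0.08.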
